A study of Mus musculus with 6 samples.

Results

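The desmosome genes examined here are 10 listed mouse genes that encode the core parts of the desmosome, the junction that rivets neighbouring keratinocytes together. They are the desmogleins *Dsg1a*, *Dsg1b*, *Dsg2* and *Dsg3*, the desmocollins *Dsc1*, *Dsc2* and *Dsc3*, plakoglobin (*Jup*), plakophilin 1 (*Pkp1*) and desmoplakin (*Dsp*). They were taken by name from a list, and 14 of the 55681 probes on the array were matched to them. *Dsg2*, *Dsg3*, *Dsc3* and *Dsp* had 2 probes each, and every other gene had 1. Gene expression was measured in primary keratinocytes cultured from newborn mice (strain label 129SvEx:C57BL/6), in which *Sox4* (Sox4 cKO), *Sox11* (Sox11 cKO) or both genes (dcKO) were conditionally deleted. Wild-type control keratinocytes supplied the other channel of each of the 6 arrays. Per the study's methods, deletion was by Cre under the *Krt14* promoter, from FVB/N mice, acting on floxed alleles, so only cells that had expressed keratin 14 were targeted. The floxed mice used for breeding also carried a *Sox12* deletion, and whether the array cells carried it is not given in the sources used here. All cells were untreated, had been grown on J2 feeder cells, and were then passaged without them.

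In a desmosome, the extracellular parts of desmogleins and desmocollins bind each other across the gap between cells. Plakoglobin and the plakophilins, which are armadillo-repeat proteins, bind their cytoplasmic tails. Desmoplakin, a plakin, links that plaque to keratin filaments. In stratified epidermis the cadherins are deployed in layers: *Dsg3*, *Dsc3*, *Dsg2* and *Dsc2* are known for expression in basal and lower layers or in simple epithelia, while *Dsg1* genes and *Dsc1* are known as products of differentiating upper layers. SOX4 and SOX11 are transcription factors of the SoxC family.

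Each genotype had 2 arrays, labelled as biological replicates, with knockout RNA in Cy5 on replicate 1 and in Cy3 on replicate 2. The labels do not say whether wild-type RNA came from separate cultures, and p-values measure only the spread between these arrays, whose number limits the precision. Between 35.1% and 45% of probes were well above background in a channel. The targeted genes followed the labels: *Sox4* was lower by a log2 fold change of -2.52 in both Sox4 cKO and dcKO cells, and *Sox11* by -2.98 in Sox11 cKO and -3.43 in dcKO cells, with limma adjusted p-values between 0.00106 and 0.0414. All 6 keratinocyte markers (*Krt5*, *Krt14*, *Trp63*, *Itgb4*, *Itga6* and *Col17a1*) were well above background on every array. None of the fibroblast (8), melanocyte (5), immune (4) or endothelial (3) marker genes passed the test in any genotype. At an unadjusted p under 0.05 by limma there were 1 fibroblast gene in Sox4 cKO (7.4% of all probes) and 1 melanocyte gene in dcKO cells (13% of all probes). By the same limit there were 0 keratinocyte markers in Sox4 cKO, 3 of 6 in Sox11 cKO (6.85% of all probes) and 3 of 6 in dcKO cells. Their list medians were -0.05, -0.38 and -0.36, and their part in the results below was not tested. In dcKO cells the 3 were *Itga6* (-0.81), *Trp63* (-0.50) and *Itgb4* (-0.48), named after their values were seen, and none passed (the lowest limma adjusted p was 0.0688). The fibroblast genes *Col1a1*, *Col3a1*, *Lum*, *Pdgfrb* and *Thy1* were well above background on no array, while *Col1a2* was so in the knockout channel of every array. The endothelial genes *Kdr* and *Pecam1* were well above background in both channels of every array, and the melanocyte genes *Pmel* and *Mlana* in most channels. The summed signal of the 8 fibroblast genes lay between 253 and 301 in knockout and between 241 and 272 in wild-type channels. Most of these genes were not well above background, so the sum is largely background signal and measures no amount of fibroblast RNA. The summed signal of the 6 keratinocyte markers lay between 189400 and 360900 in knockout channels and between 210500 and 386500 in wild-type channels. In bulk RNA, fewer cells of a type and less RNA per cell cannot be told apart.

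Most desmosome genes were expressed in these keratinocytes, and *Dsc1*, *Dsg1a* and *Dsg1b*, the listed cadherins of the upper layers, were at the edge of detection. *Dsg2*, *Dsg3*, *Dsc2*, *Dsc3*, *Jup*, *Pkp1* and *Dsp* were well above background in all 12 channels. *Dsc1* was so in 0 of 12 channels, *Dsg1a* in 3 and *Dsg1b* in 6, so that ratios of these 3 genes rest on few measured signals. None of their spots was saturated. The levels below are normalised log2 signals, which can be set against each other only within a probe.

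Wild-type levels themselves varied between arrays. Over the 6 wild-type channels the range was 1.09 for *Dsg2*, 1.36 for *Dsg3*, 1.44 for *Dsc3*, 1.21 for *Jup*, 1.08 for *Pkp1* and 1.21 for *Dsp* on the log2 scale. It was 2.10 for *Dsc2* and 2.30 for *Dsg1a*. The median range was 0.83 over the 17800 probes well above background in all channels. The wild-type channel of Sox4 cKO replicate 1 held the highest level of *Dsg3*, *Dsc2*, *Dsc3*, *Jup*, *Pkp1* and *Dsp*. Knockout and wild-type levels are therefore compared within an array, as log2 ratios of knockout over wild type.

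A probe was called at a limma adjusted p under 0.05 (Benjamini-Hochberg over all 55681 probes) together with an absolute log2 fold change over 1.5. By that rule 0 of 10 desmosome genes were called in Sox4 cKO cells, where 0.14% of all probes were called. The count was 0 of 10 in Sox11 cKO cells, against 0.0862% of all probes, and 0 of 10 in dcKO cells, against 0.756%. At an unadjusted p under 0.05 by limma, the counts were 1 of 10 in Sox4 cKO (*Dsp*; 7.4% of all probes), 2 of 10 in Sox11 cKO (*Dsg2* and *Dsc2*; 6.85%) and 5 of 10 in dcKO cells (*Dsg1a*, *Dsg2*, *Dsg3*, *Dsc2* and *Dsc3*; 13%). In dcKO cells *Dsg2* alone of the 10 reached an adjusted p under 0.05, a limit that 2.06% of all probes passed. Without Sox11 cKO replicate 1 the fitted changes in Sox11 cKO cells were -3.04 for *Dsg1a*, -1.83 for *Dsg1b* and 1.51 for *Dsg2*. Each then rests on 1 array, with a dye effect taken from the other genotypes. *Dsg1a* was well above background in 0 of the 2 Sox11 cKO knockout channels. In this model the dcKO change of *Dsg1a*, 1.59, is the mean of its 2 dcKO array ratios, 0.11 and 3.07. Leaving out a Sox11 cKO array therefore could not move it, only the estimate of spread behind its p-value.

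The desmosome genes did not move as a unit. The median of the fitted log2 changes of all 10 was -0.06 in Sox4 cKO (all probes 0.0016), -0.15 in Sox11 cKO (all probes -0.0017) and 0.27 in dcKO cells (all probes -0.0042). Over the 7 genes measured in all channels it was -0.11, -0.07 and -0.09 in the same order, so the sign of the dcKO median turned when *Dsg1a*, *Dsg1b* and *Dsc1* were set aside. Of these 7, 3 had higher levels than wild type on both dcKO arrays (*Dsg3*, *Dsc3* and *Jup*) and 4 had lower levels (*Dsg2*, *Dsc2*, *Pkp1* and *Dsp*). The ratios of 5 of the 7 had opposite signs on the Sox4 cKO arrays, and those of 4 of the 7 on the Sox11 cKO arrays. Over the 17800 probes above, 67.2% had the same sign on both dcKO arrays, 50.3% on both Sox4 cKO arrays and 40.8% on both Sox11 cKO arrays.

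**Figure D1:**
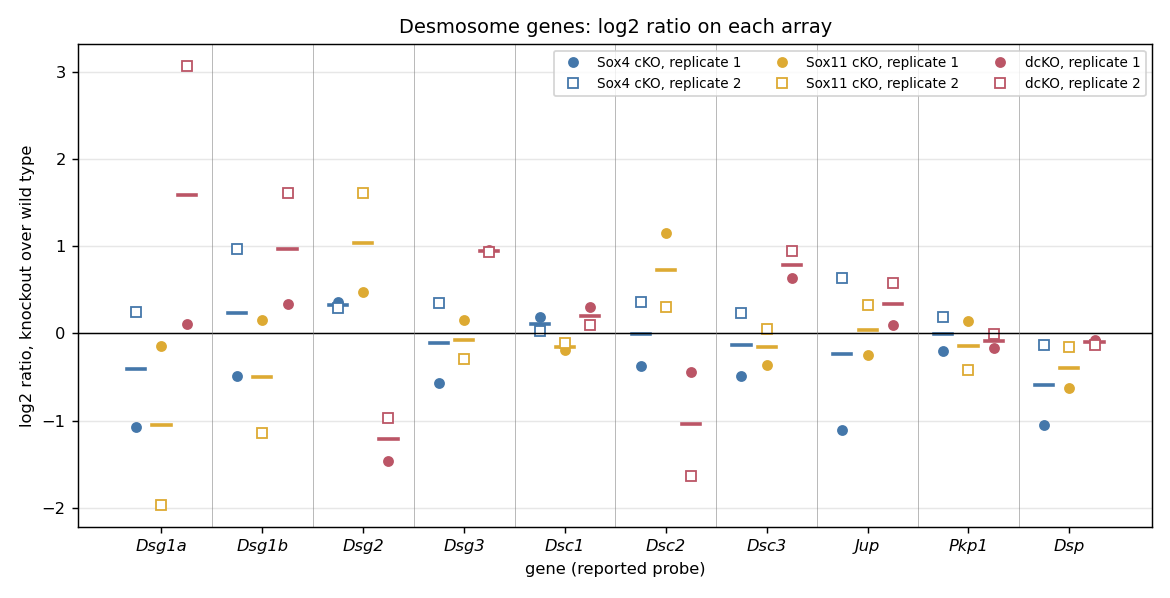
Log2 ratio of knockout over wild type (vertical axis) of the 10 desmosome genes (horizontal axis), coloured by genotype. Filled circles are replicate 1, open squares replicate 2 and bars the fitted log2 fold change. Both dcKO arrays lie below 0 for Dsg2 and Dsc2 and above 0 for Dsg3 and Dsc3, and the 2 dcKO values of Dsg1a, 0.11 and 3.07, lie far apart.

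Desmoglein 2, the desmoglein of simple epithelia and of the basal layer, was lower in dcKO cells. Its normalised log2 level (probe A_51_P249848) was 6.06 and 6.03 on the 2 dcKO arrays, against 7.52 and 7.00 in the wild-type channels of the same arrays. Those 2 levels were below every wild-type level in the series, the lowest of which was 6.78. The log2 ratios were -1.46 and -0.97, a fitted change of -1.22 ± 0.34 (SD, n = 2), or 2.32-fold lower, with a limma adjusted p of 0.0368. The wild-type levels on the dcKO arrays averaged 0.18 away from the mean of the other wild-type channels, and the knockout levels 1.40 away from it. In Sox11 cKO cells *Dsg2* had the opposite sign: its level was 8.33 and 8.39 in knockout and 7.86 and 6.78 in wild-type channels. The knockout levels of those 2 arrays were nearly equal, and the gap between their ratios, 0.47 and 1.61, came with the wild-type levels. That fitted change, 1.04 ± 0.81 (SD, n = 2), did not pass (limma adjusted p = 0.204). Loss of *Sox4* alone gave a level of 7.82 and 7.98 against 7.45 and 7.69, and a fitted value of 0.33 ± 0.05 (SD, n = 2; limma adjusted p = 0.801).

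The second *Dsg2* probe (A_52_P88091) had the same sign as the first on all 6 arrays. On dcKO replicate 1 the probes nearly coincided, at -1.46 each. On dcKO replicate 2 the second probe gave -0.27, which was 0.70 from the first, and it was well above background in 1 of the 2 dcKO knockout channels. Its fitted change in dcKO cells was -0.86 (limma adjusted p = 0.125). The adjusted p of the brighter probe rested on both dcKO arrays: the fitted change was -1.24 without dcKO replicate 1 and -1.19 without dcKO replicate 2, with limma adjusted p-values of 0.317 and 0.375. Over the other settings the change lay between -1.70 and -0.86 and the adjusted p between 0.00703 and 0.239.

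Desmoglein 3, the desmoglein bound by the autoantibodies of pemphigus vulgaris, had the opposite direction in dcKO cells. Its level (probe A_55_P2163003) was 10.53 and 10.60 in dcKO channels and 9.58 and 9.66 in their wild-type channels. The groups did not overlap, and the 2 log2 ratios, 0.95 and 0.94, were nearly equal. The fitted change was 0.94 ± 0.01 (SD, n = 2), or 1.92-fold, with a limma SE of 0.23 and a limma adjusted p of 0.104, so it did not pass. Both dcKO levels were nonetheless inside the range of wild-type levels in the series, 9.32 to 10.68, whose top was on Sox4 cKO replicate 1. The second probe gave 0.64 and 0.81 on the dcKO arrays (0.72; limma adjusted p = 0.148). Scaling each array by its median in place of loess gave 0.40 for the first probe, and over the settings other than arrays left out its limma adjusted p lay between 0.0196 and 0.341. The single knockouts straddled 0, with *Dsg3* ratios of -0.57 and 0.34 for Sox4 cKO and 0.15 and -0.30 for Sox11 cKO.

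The desmoglein 1 genes, of which the mouse has 3 close copies that probes may not tell apart, differed widely between replicates. *Dsg1a* was well above background in 1 knockout channel, that of dcKO replicate 2, where its log2 ratio was 3.07. On dcKO replicate 1 the ratio was 0.11, and the fitted change of 1.59 had an SD of 2.09 (n = 2; limma adjusted p = 0.352). On that first array neither channel was well above background, so no fold is given for *Dsg1a* in dcKO cells. *Dsg1a* was also well above background in the wild-type channel of Sox11 cKO replicate 2, and there its ratio was -1.97, against -0.14 on replicate 1. *Dsg1b* followed the same arrays: its ratios were 0.33 and 1.61 in dcKO cells and 0.15 and -1.15 in Sox11 cKO cells. Its limma adjusted p-values in the 3 genotypes lay between 0.402 and 0.948. Hybridisation of each probe to the other copies was not tested.

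Desmocollin 2, which pairs with *Dsg2* in simple epithelia, was lower on both dcKO arrays. Its level (probe A_55_P1965303) was 7.10 and 6.90 in dcKO channels and 7.55 and 8.53 in their wild-type channels. Both dcKO levels were below all 6 wild-type levels, which lay between 7.55 and 9.65. The log2 ratios of -0.45 and -1.64 gave -1.04 ± 0.84 (SD, n = 2), which did not pass (limma adjusted p = 0.165). In Sox11 cKO cells the ratios were 1.15 and 0.30, with a knockout level of 10.15 on replicate 1 that was the highest of all 12 channels. That change, 0.73 ± 0.60 (SD, n = 2), did not pass either (limma adjusted p = 0.713). Sox4 cKO ratios were -0.38 and 0.36, on either side of 0.

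Desmocollin 3, the main desmocollin of the basal layer, had a level (probe A_55_P1999483) of 10.17 and 10.45 in dcKO channels. The wild-type channels of those arrays held 9.54 and 9.50. Over the series the wild-type levels ran from 8.79 to 10.23, so the dcKO level of replicate 1 was inside that range and that of replicate 2 above it. The log2 ratios were 0.63 and 0.95 and the fitted change 0.79 ± 0.22 (SD, n = 2), or 1.73-fold, with a limma adjusted p of 0.0508, just outside the limit. A second probe gave 0.68 and 0.76 (0.72; limma adjusted p = 0.0782). The fitted value of the first was 0.25 when arrays were scaled by their median, and its limma adjusted p lay between 0.0204 and 0.399 over the settings other than arrays left out. The single knockouts straddled 0 again, with -0.49 and 0.24 for Sox4 cKO and -0.36 and 0.05 for Sox11 cKO. *Dsc1*, the desmocollin of the upper layers, was not well above background in any channel, and no fold is given for it.

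**Figure D2:**
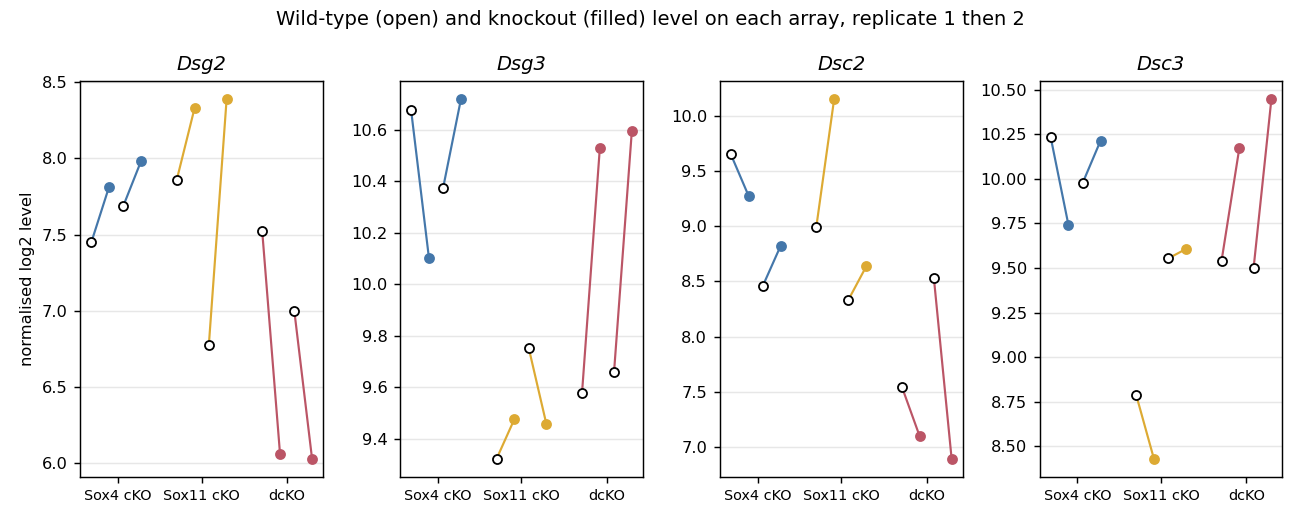
Normalised log2 level (vertical axis, a separate scale for each gene) of Dsg2, Dsg3, Dsc2 and Dsc3 in the wild-type (open) and knockout (filled) channel of each array, joined by a line, with replicate 1 to the left of replicate 2. The dcKO levels of Dsg2, 6.06 and 6.03, lie below every wild-type level, while the dcKO levels of Dsg3 and Dsc3 lie above the wild-type levels of their own arrays.

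Plakoglobin, which sits in both desmosomes and adherens junctions, had log2 ratios of -1.10 and 0.63 after loss of *Sox4*. These replicates pointed in opposite directions, with an SD of 1.23. Its ratios were -0.25 and 0.32 for Sox11 cKO and 0.10 and 0.58 for dcKO. The dcKO change, 0.34 ± 0.34 (SD, n = 2; limma adjusted p = 0.664), had the opposite sign, -0.07, under median scaling. *Pkp1*, which gathers desmoplakin and cadherins into the plaque, had fitted log2 changes of -0.01 (Sox4 cKO), -0.14 (Sox11 cKO) and -0.09 (dcKO), each within its SE of 0.19. Under median scaling the first of these was 0.06.

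Desmoplakin, the link to keratin filaments, was lower than wild type on all 6 arrays. Its log2 ratios were -1.05 and -0.14 in Sox4 cKO, -0.63 and -0.15 in Sox11 cKO and -0.07 and -0.13 in dcKO cells. The largest difference was on Sox4 cKO replicate 1, where the level was 12.46 against 13.52 in wild type. In Sox4 cKO comparisons the wild-type levels of *Dsp* averaged 0.68 away from the mean of the other wild-type channels, and the knockout levels 0.09 away from it. The main *Dsp* probe is spotted 10 times, and the SD of the ratio over spots of an array was between 0.06 and 0.14, well under the 0.65 SD between the Sox4 cKO arrays. The fitted changes were -0.60 (SE 0.19; limma adjusted p = 0.532), -0.39 (limma adjusted p = 0.797) and -0.10 (limma adjusted p = 0.915), and none passed. The Sox4 cKO value was -0.24 without replicate 1 of that genotype and -0.95 without replicate 2. The second probe gave -0.74 in Sox4 cKO cells (limma adjusted p = 0.352).

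**Figure D3:**
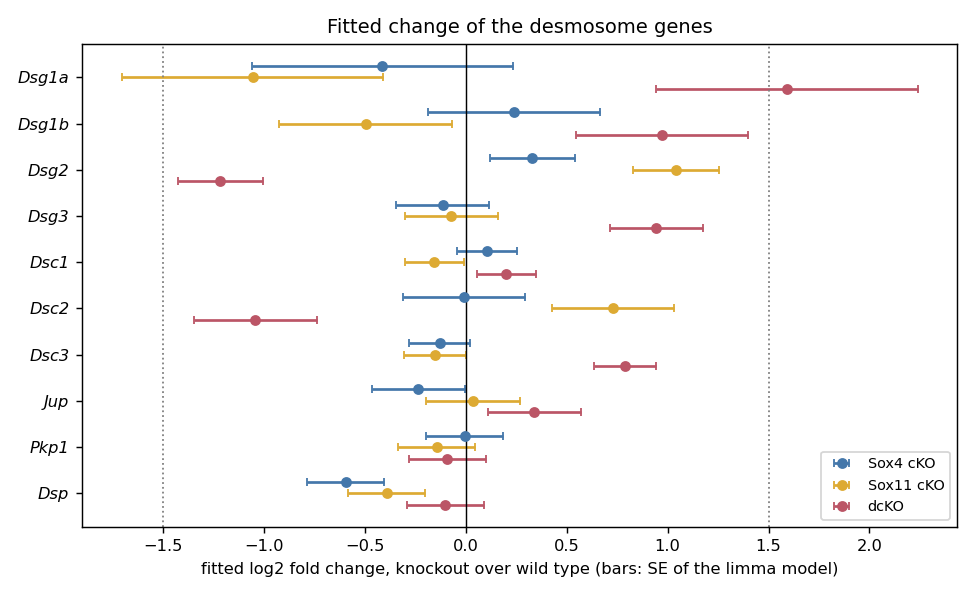
Fitted log2 fold change of knockout over wild type (horizontal axis) of each desmosome gene (vertical axis) in the 3 genotypes. Points are limma estimates from 2 arrays per genotype, bars are 1 SE of the model either way and dotted lines mark 1.5 on either side of 0. The dcKO estimates of Dsg2 (-1.22) and Dsc2 (-1.04) lie below 0 and those of Dsg3 (0.94) and Dsc3 (0.79) above it.

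Whether loss of both factors differed from loss of 1 was tested as a contrast of the same model. The desmoglein 2 difference between dcKO and Sox11 cKO cells was -2.26 on the log2 scale (SE 0.30), or 4.78-fold, with a limma adjusted p of 0.0324. It was the only desmosome gene called in that contrast, 1 of 10, where 0.449% of all probes were called and 0.481% passed on adjusted p alone. The fitted change was -1.22 in dcKO and 1.04 in Sox11 cKO cells, so the difference joins changes of opposite sign. Without dcKO replicate 1 it was -2.28 (limma adjusted p = 0.159), and without dcKO replicate 2 it was -2.23 (limma adjusted p = 0.234), and the call was lost both times. Without Sox11 cKO replicate 1 the differences were 4.63 for *Dsg1a*, 2.81 for *Dsg1b* and -2.73 for *Dsg2*, resting on 1 Sox11 cKO array. The dcKO minus Sox11 cKO differences do not use the Sox4 cKO arrays. Leaving out either of those could move only the estimate of spread, not the -2.26 of *Dsg2* or the -1.77 of *Dsc2*. The second *Dsg2* probe gave -1.56 (limma adjusted p = 0.108). Over the settings other than arrays left out, the limma adjusted p of the brighter probe lay between 0.0117 and 0.378.

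Between dcKO and Sox4 cKO cells 0 of 10 genes were called by limma, where 0.562% of all probes were. *Dsg2* came nearest, at -1.55 (SE 0.30; limma adjusted p = 0.0821). At an unadjusted p under 0.05 there were 4 genes (*Dsg2*, *Dsg3*, *Dsc2* and *Dsc3*; 12.1% of all probes). In the contrast of dcKO and Sox11 cKO cells 6 genes reached that unadjusted limit (*Dsg1a*, *Dsg1b*, *Dsg2*, *Dsg3*, *Dsc2* and *Dsc3*), against 10.3% of all probes. All 6 are cadherins, as are most of the listed genes. Of these, *Dsg1a* and *Dsg1b* were well above background in only 3 and 6 of 12 channels. Between Sox4 cKO and Sox11 cKO cells 0 of 10 were called, against 0.0108% of all probes, and *Dsg2* alone had an unadjusted p under 0.05 by limma (6.35% of all probes). These contrasts and the comparisons with wild type share their arrays. The dcKO minus Sox4 cKO differences of *Dsg1a* (2.00) and *Dsg2* (-1.55) come from the ratios of the dcKO and Sox4 cKO arrays alone. Leaving out either Sox11 cKO array therefore could not move them, only the estimate of spread. Without Sox11 cKO replicate 1 the Sox4 cKO minus Sox11 cKO differences were 2.62 for *Dsg1a* and 2.07 for *Dsg1b*, resting on 1 Sox11 cKO array.

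The cadherin genes of the desmosome lie next to one another in the mouse genome. In RefSeq's gene order for GRCm38.p6 the run is *Dsc3*, *Dsc2*, *Dsc1*, *Dsg1c*, *Dsg1a*, *Dsg1b*, *Dsg4*, *Dsg3* and *Dsg2*. The genes at the 2 ends had opposite signs from their nearest neighbours in dcKO cells: *Dsc3* (0.79) lies beside *Dsc2* (-1.04), and *Dsg2* (-1.22) beside *Dsg3* (0.94). The signs were the same on both dcKO arrays for each of the 4 genes, as they were for 67.2% of the 17800 probes above. Of the 4 only *Dsg2* had a limma adjusted p under 0.05. The limma adjusted p-values of *Dsc3*, *Dsc2* and *Dsg3* were 0.0508, 0.165 and 0.104.

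Other desmosome-associated genes, a list of 10 (*Dsg1c*, *Dsg4*, *Pkp2*, *Pkp3*, *Pkp4*, *Perp*, *Ppl*, *Evpl*, *Kazn* and *Cdsn*), had 0 genes passing in any genotype by limma. At an unadjusted p under 0.05 by limma there were 1 of them in Sox4 cKO (7.4% of all probes), 1 in Sox11 cKO (6.85%) and 3 in dcKO cells (13%). The list's medians were -0.09, -0.09 and 0.25 in the same order. The lowest and the highest in dcKO cells were *Pkp2* and *Cdsn*, and *Evpl* had the lowest limma adjusted p, all named after their values were seen. *Pkp2*, a plakophilin of simple epithelia and heart, had dcKO ratios of -0.12 and -1.06 (limma adjusted p = 0.28). *Cdsn*, which encodes corneodesmosin of the upper-layer desmosome, had dcKO ratios of 0.46 and 1.67 (limma adjusted p = 0.337). *Evpl*, which encodes the plakin envoplakin, had dcKO ratios of 0.63 and 0.99 (limma adjusted p = 0.0681). *Dsg4* was well above background on no array.

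Among 12 keratins, the filaments to which desmosomes attach, *Krt18* stood out. This type I keratin of simple epithelia had log2 ratios of -4.57 and -3.50 in dcKO cells, a fitted change of -4.03 ± 0.76 (SD, n = 2), or 16.4-fold lower (limma adjusted p = 0.000797). *Krt18* was 1.59 in Sox4 cKO (limma adjusted p = 0.0557) and 1.08 in Sox11 cKO cells (limma adjusted p = 0.193), so its signs over the 3 genotypes were those of *Dsg2*. *Krt8*, its usual partner and named after its values were seen, had dcKO ratios of -0.43 and -1.60 (limma adjusted p = 0.0885). *Krt19*, named in the same way, had dcKO ratios of -0.10 and 0.89 and a fitted change of 0.40, opposite in sign (limma adjusted p = 0.375). Of the 12 keratins, 2 were lower and 3 higher on both dcKO arrays. *Krt15*, a basal keratin, was called lower in Sox4 cKO cells, with ratios of -1.52 and -1.64 (limma adjusted p = 0.0245). Its levels in the wild-type channels ran from 5.68 to 10.59 over the series. In dcKO cells the ratios of *Krt15* were 0.88 and 0.82 (limma adjusted p = 0.0432, under the fold limit). Of the 12 keratins 1 was called by limma in dcKO cells (0.756% of all probes) and 1 in Sox4 cKO cells (0.14%), while Sox11 cKO cells had 0 (0.0862%). The counts at an unadjusted p under 0.05 by limma were 4 for dcKO (13% of all probes), 2 for Sox4 cKO (7.4%) and 4 for Sox11 cKO (6.85%). The list medians were 0.26, 0.10 and -0.22 in the same order.

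In the other cell-cell junctions 1 gene was called, in dcKO cells, where 0.756% of all probes were called. Of 10 adherens junction genes 0 passed in any genotype by limma. At an unadjusted p under 0.05 by limma there were 1 in Sox4 cKO (7.4% of all probes), 3 in Sox11 cKO (6.85%) and 3 in dcKO cells (13%). The dcKO changes of the 10 lay between -0.76 and 0.36, with a median of -0.05. Of 8 tight junction genes, *Cldn7*, a claudin, was called lower in dcKO cells, with ratios of -1.86 and -3.74 and a fitted change of -2.80 ± 1.34 (SD, n = 2; limma adjusted p = 0.0246). Its dcKO levels, 9.49 and 7.01, were within the span of wild-type levels on other arrays, 6.74 to 12.27. The median over the tight junction genes in dcKO cells was -0.31, with 6 of 8 lower on both arrays. In either single knockout 0 of 8 passed. Tight junction genes at an unadjusted p under 0.05 by limma were 2 in Sox4 cKO (7.4% of all probes), 2 in Sox11 cKO (6.85%) and 3 in dcKO cells (13%).

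**Figure D4:**
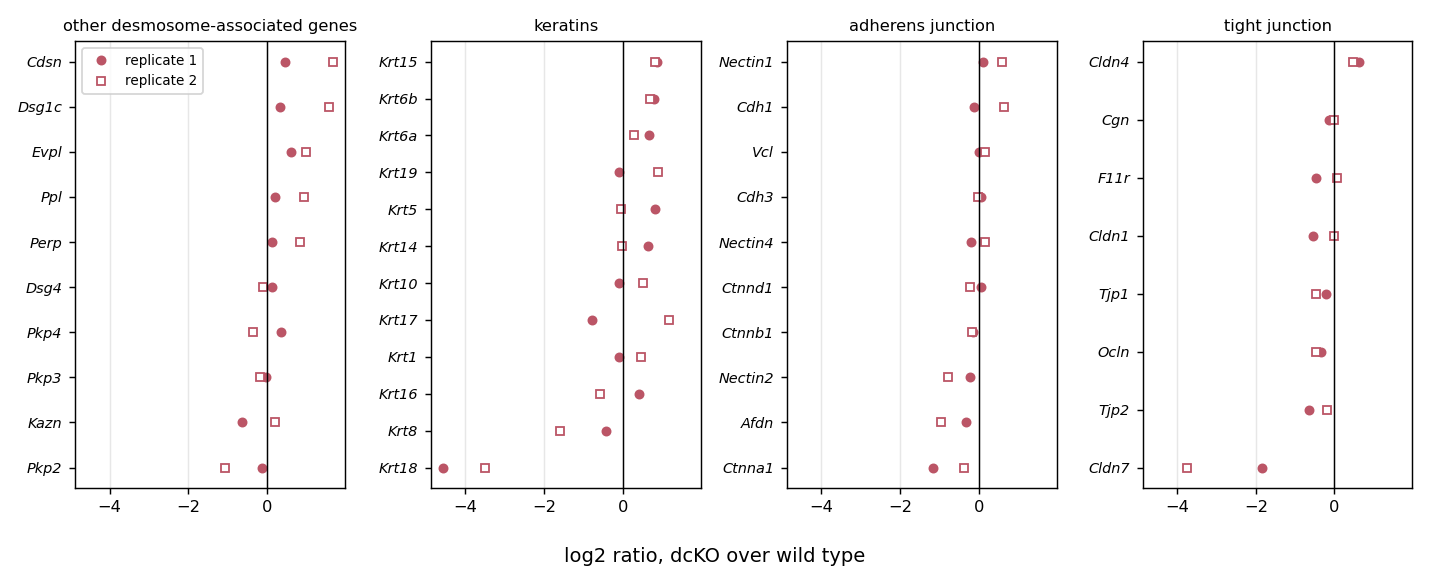
Log2 ratio of dcKO over wild type (horizontal axis) of the genes related to the desmosome, in 4 panels: other desmosome-associated genes, keratins, adherens junction genes and tight junction genes. Filled circles are replicate 1 and open squares replicate 2. Krt18 (-4.57 and -3.50) and Cldn7 (-1.86 and -3.74) lie farthest from 0.

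The genes whose 6 dye-adjusted array ratios were most like the mean of the 7 desmosome genes measured in all channels were *Tmem17* (Pearson's r 0.99), *Gatd1* (0.98), *Eef2* (0.98), *Dhrsx* (0.97) and *Osbp* (0.96), out of 10143 candidate genes. The likeness is a description over 6 arrays that share 1 slide and come in pairs of 1 genotype. That mean joins genes that ran against each other, with a Pearson's r over the same arrays of -0.94 between *Dsg2* and *Dsc3* and -0.91 between *Dsg2* and *Dsg3*, so it is the pattern of no single desmosome gene. The fitted changes of the 5 genes were small, between -0.47 and 0.28 in the 3 genotypes.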

How the data were processed

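Total RNA of 6 culture comparisons was hybridised to 2-colour Agilent arrays. The authors deposited linear spot intensity values of each channel, made with Agilent Feature Extraction 11.0.1.1. Median signals are neither background corrected nor normalised, and the processed intensity columns are both, per the file headers. A deposited table of log2 ratios by the authors had, per the study's methods, an offset, loess and a dye correction. On each of the 6 arrays it gave knockout over wild type (correlations with the scanner ratios 0.89 to 0.95) and it served as an alternative.

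In R 4.3.3 with limma 3.58.1, median signals were corrected by normexp (offset 16, as in the study), 3671 control spots of 62976 were left out, outlier spots (194 to 288 per array) were set to missing, and arrays were normalised by loess. Spots of a probe were averaged. lmFit and eBayes were run over all 6 arrays with 3 genotype effects and a dye term, leaving 2 residual and 5.37 prior degrees of freedom, and the genotypes were compared as contrasts. The dye term is the same as a block on the replicate number. Same-numbered arrays deviated together from their genotype means (correlations 0.316, 0.244 and 0.125), and they also share a dye orientation. SD is over the 2 arrays of a genotype. Levels were loess values scaled between arrays (Aquantile). A probe was well above background where a share of at least 0.5 of its spots carried the scanner's mark. The model was tested on simulated data. With variances drawn from its own prior it held its error rate, and with the moderated variances of the real probes it made more false calls than the nominal rate.

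Probes were named through RefSeq's table for GRCm38.p6: a symbol was found for 95.1% of the 29786 probes that carry a RefSeq accession. The array was designed on mm9, so no coordinates are given. A gene with several probes is reported by the brightest. All 10 members are named, and of the other lists those genes that were called or had an adjusted p under 0.05, beside a few chosen after their values were seen and named as such. The members, lists and rules were chosen with earlier results of these data known. Slide and scan were shared by all arrays and could not be tested. The alternatives were an offset of 50, no dye term, the dye effect subtracted first, processed signals, the authors' table, median centring, single-genotype fits, a filter on dim probes, the mean of a gene's probes and each array left out.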

Additional observations from a re-analysis of the deposited data

Results flagged for a closer look

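The change of *Dsg2* differed between dcKO and Sox11 cKO cells, by -2.26 on the log2 scale in the test of the difference itself (limma adjusted p = 0.0324). It was lower than wild type on both dcKO arrays (-1.46 and -0.97) and higher on both Sox11 cKO arrays (0.47 and 1.61). The wild-type levels of *Dsg2* on these 4 arrays lay between 6.78 and 7.86, and their part in the difference was not tested.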

How the results depend on the processing

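With 2 arrays per genotype, the number of called desmosome genes moved with the processing. Between dcKO and Sox11 cKO cells the count was 1, where 250 of all probes were called. With an offset of 50 and with processed signals 0 of all probes were called, so those 2 settings could not show a desmosome call. The count became 0 with the filter on dim probes (106 of all probes called) and with the mean of a gene's probes (176 called in all). It was 2 with median centring (827 of all probes). Without the dye term, that is with no replicate block, it was also 0 (limma adjusted p of *Dsg2* = 0.106), where 88 of all probes were called. The limma adjusted p of *Dsg2* in dcKO cells over wild type was then 0.101. No other call of a desmosome gene changed without that block. The count between dcKO and Sox4 cKO cells was 1 with the authors' table (546 of all probes called) and 1 with median centring (1118). In the main fit it was 0, where 313 of all probes were called. Median centring gave 1 called gene in dcKO cells (*Dsg2*, -1.53), where 720 of all probes were called against 421 in the main fit. The median over the 10 genes was then 0.091. Some signs turned, none of them of a called value. *Pkp1* in Sox4 cKO cells was 0.00049 with an offset of 50, 0.0028 with processed signals and 0.060 with median centring. *Dsc2* in Sox4 cKO cells was 0.011 with processed signals and 0.078 with median centring, *Dsc1* in those cells was -0.40 with processed signals, and *Jup* in dcKO cells was -0.067 with median centring. The cause of these shifts was not tested.

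With each array left out in turn, the count ranged from 0 to 3 in Sox11 cKO, from 0 to 1 in dcKO, from 0 to 2 for dcKO minus Sox4 cKO, from 0 to 3 for dcKO minus Sox11 cKO and from 0 to 2 for Sox4 cKO minus Sox11 cKO. The median over the genes ranged from -0.60 to 0.17 in Sox4 cKO, from -0.30 to 0.34 in Sox11 cKO and from 0.072 to 0.28 in dcKO. The lone array of a genotype is then taken to vary like the others, and its dye effect comes from the other genotypes. Over the arrays left out, Sox4 cKO changes ran from -0.50 to 0.98 for *Dsg1b*, from -0.11 to 0.77 for *Dsg2*, from -0.69 to 0.46 for *Dsg3*, from -0.89 to 0.87 for *Dsc2*, from -0.31 to 0.054 for *Dsc3*, from -0.84 to 0.37 for *Jup* and from -0.31 to 0.29 for *Pkp1*. Sox11 cKO changes ran from -3.04 to 0.93 for *Dsg1a*, from -1.83 to 0.84 for *Dsg1b*, from -0.52 to 0.38 for *Dsg3*, from -0.23 to 0.30 for *Jup* and from -0.56 to 0.28 for *Pkp1*. In dcKO cells the ranges were -0.012 to 3.19 for *Dsg1a*, -0.00016 to 0.68 for *Jup*, -0.21 to 0.029 for *Pkp1* and -0.48 to 0.28 for *Dsp*.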
